A study of Mus musculus with 12 samples.

Results

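The comparison is between 2 wild type mouse tongue organoid lines, foliate (FoP) against circumvallate (CVP), each read in 2 libraries. The foliate and circumvallate papillae are the taste bud-bearing folds at the sides and back of the tongue, and organoids are epithelial cultures grown in 3 dimensions from tissue stem cells. The 4 wild type libraries carry the genotype label WT, no treatment, and the cell type label "Various". The other 8 of the 12 libraries of the series are Foxe1 knock-out cultures, labelled as genetic modification, from clones 2.9 and 2.10 (CVP) and 2.4 and 2.5 (FoP) in duplicate. They entered the fit for their spread and stayed out of the contrast. Genes with at least 10 counts in at least 2 of the 4 wild type libraries were kept, which left 15871 of the 55367 genes of the table; 32216 genes had at least 1 count in some library. Of the tested genes, 2819 are predicted gene models and are counted but not named.

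The labels do not say whether the wild type duplicates were grown as separate cultures, so each line was taken as 1 culture. The p-values rest on 1 spread per gene over all 12 libraries, which mixes duplicates, possibly technical, with differences between knock-out clones. They do not measure the spread between wild type cultures. A difference between papillae therefore cannot be told apart from a difference between 2 cultures. The labels give no strain, animal, age or medium. In bulk RNA, fewer cells of a type and less RNA per cell cannot be told apart.

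Posterior tongue papillae are lined by a stratified epithelium of dividing basal keratinocytes and differentiating layers, with taste buds in the trench walls. Small serous glands named after von Ebner open into the trenches of both papillae, and minor mucous glands lie near them. Their ducts and acini release lysozyme, lactoferrin, lipocalins, BPI-fold proteins and mucins, and gland cells can enter organoids grown from papilla tissue.

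The 4 wild type libraries held 71.6 M and 73.6 M counts (circumvallate) and 68.4 M and 62.1 M counts (foliate), and all 12 held 59.3 M to 73.6 M. A level of 1 CPM (counts per 1 M, on scaled library sizes) stood for 62.3 to 72.5 counts in these libraries. Mitochondrial genes took 0.58% to 0.683% of the counts. Both lines held the markers of a basal epithelium: Krt5, a basal keratin, stood at 3980 and 3860 CPM in circumvallate and 5070 and 4980 CPM in foliate libraries, and Epcam, an epithelial adhesion protein, at 1560 and 1560 against 1270 and 1320 CPM. The defining genes of mature taste receptor cells were at or near 0: Gnat3 had 0 counts in all 4 libraries, Trpm5 at most 2 and Pkd2l1 at most 1. The leukocyte genes Ptprc, Cd3e and Adgre1 had 0 counts throughout. Foxe1, the gene targeted in the other cultures, had 1049 and 1144 counts in circumvallate and 1124 and 989 counts in foliate libraries (15.2 and 15.8 against 16.2 and 15.9 CPM). Foxe1 was not called (log2 fold change 0.05, edgeR adjusted p = 0.972).

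Over all tested genes, 673 were higher in foliate and 506 were lower, 1179 in all (7.43% of genes; 4.24% higher and 3.19% lower). A gene was called where its edgeR quasi-likelihood p, adjusted by Benjamini-Hochberg over the 15871 genes, was under 0.05. Most called differences were small: the median absolute log2 fold change (foliate minus circumvallate, on the log2 scale) was 0.43, 785 of the 1179 were under 1.5-fold, and 101 higher and 92 lower genes passed 2-fold. Tested against a change of 2-fold itself, 5 genes passed (0.0315%): Plb1 was higher in foliate, and Reg3g, Chil1, Muc5b and Fmo1 were lower. The 2 libraries of one line did not overlap those of the other for any of the 1179 called genes, which is also true of 31.9% of all tested genes with foliate higher and 29.3% with foliate lower. The middle of all genes sat at zero (median log2 fold change 0.0084), and the 5th and 95th percentiles were -0.82 and 0.8.

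The count rests on the duplicates and on the spread lent by the knock-out cultures. With the wild type libraries alone in the fit, where the spread is only that between duplicates, 3851 genes were called, 1877 higher and 1974 lower. With the duplicates summed to 1 value per culture, 0 genes were called by edgeR's quasi-likelihood test, with 1582 at an unadjusted p under 0.05 against 3795 in the fit reported. Leaving out 1 wild type library left between 109 and 172 calls, and 61 genes (34 higher, 27 lower) were called whichever of the 4 was left out. The 2 lines were close on the scale of the series: the root mean square log2 distance was 0.409 between the circumvallate duplicates, 0.441 between the foliate duplicates and 0.587 to 0.624 between lines. Of the 15 pairs of cultures in the series, the 2 wild type cultures were the nearest, at 0.522 between their means against 0.536 to 0.93 for the others.

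**Figure D1:**
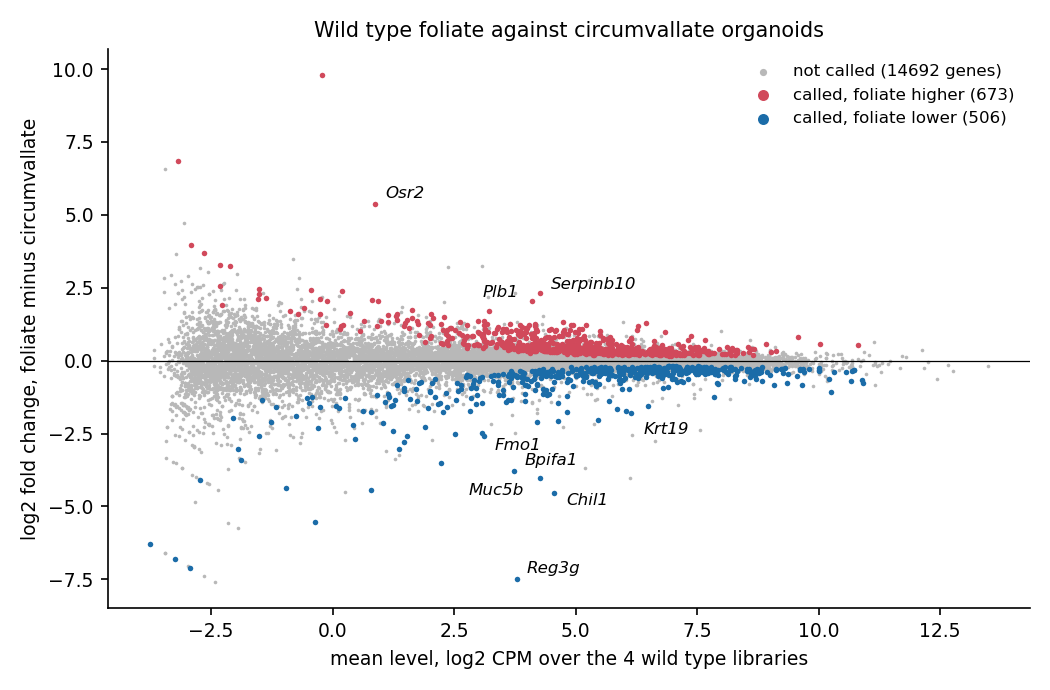
Log2 fold change (foliate minus circumvallate, wild type) of each of the 15871 tested genes against its mean level in log2 CPM; red points are the 673 genes called higher in foliate, blue points the 506 called lower and grey points the rest. Most calls lie close to zero, while Reg3g, Chil1, Muc5b and Bpifa1 stand far below it and Osr2, at a low level, far above.

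Secreted gland proteins were among the largest differences, lower in foliate. Of the 52 listed serous and mucous saliva proteins 27 were tested; 10 were lower in foliate (37%, against 3.19% of all genes), 0 were higher and 17 were not called, and the median log2 fold change of the tested members was -1.06. Members expressed only in one line could pass the filter only through it, so this count and median are descriptions. The sum over the list was 11800 and 14070 CPM in circumvallate and 7385 and 7714 CPM in foliate libraries. Of the listed proteins that were not tested, Bpifa2, Tff3 and Reg3b had 0 counts in all 4 libraries.

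Reg3g, a secreted C-type lectin that acts on Gram-positive bacteria, had 19.3 and 35.6 CPM in circumvallate and 0.173 and 0.128 CPM in foliate libraries. Its log2 fold change was -7.48 ± 0.66 (standard error; edgeR adjusted p = 0.00228). Muc5b, a gel-forming mucin of salivary mucous cells, had 24.9 and 47.3 CPM against 1.83 and 2.55 CPM (log2 fold change -4.04 ± 0.39, edgeR adjusted p = 0.000889). Both circumvallate libraries lay far above both foliate libraries for these 2 genes, and circumvallate library 2 was the higher of its pair for each.

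Bpifa1, a BPI-fold surfactant and defence protein, followed with 19.9 and 30.0 CPM in circumvallate and 1.10 and 2.52 CPM in foliate libraries (log2 fold change -3.79 ± 0.52, edgeR adjusted p = 0.00415). Tff2, a trefoil peptide secreted with mucins, had 5.72 and 11.5 against 0.636 and 0.883 CPM (log2 fold change -3.50 ± 0.78, edgeR adjusted p = 0.0243). Dmbt1, a scavenger receptor-type glycoprotein of saliva, had 39.3 and 41.0 against 7.95 and 11.1 CPM. The groups did not overlap for these genes. Agr2, a protein disulfide isomerase needed for mucin production, had 70.3 and 104 against 23.2 and 31.7 CPM. The remaining called members were Muc5ac, another gel-forming mucin (log2 fold change -2.12), Wfdc2, a whey acidic protein (-1.06), Clu, the chaperone clusterin (-0.78), and Cst3, the protease inhibitor cystatin C (-0.62).

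The saliva gene with the most counts did not pass. Ltf, which encodes the iron-binding lactoferrin, had 6236 and 7355 CPM in circumvallate and 4413 and 4354 CPM in foliate libraries (log2 fold change -0.63 ± 0.21, edgeR adjusted p = 0.0922). Lyz2, a lysozyme, had 16.1 and 29.6 against 2.83 and 5.39 CPM (edgeR adjusted p = 0.0604), and Lcn2, an iron-siderophore-binding lipocalin, 2650 and 3238 against 1502 and 1787 CPM (edgeR adjusted p = 0.234). For all of these the 2 lines did not overlap, as for most tested genes. Slpi, a secreted protease inhibitor, had 275 and 278 against 239 and 220 CPM. Lyz1 and Lyz2 are close copies, so reads could be split between them, and the value of Lyz2 is uncertain.

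Most saliva calls were lost when one or another wild type library was left out, as most calls of the comparison were. Each such fit leaves 1 library in a line, so a lost call does not show that the call hung on that library. No call changed sign. Of the 10 called members, 6 kept the call without circumvallate library 1, 2 without circumvallate library 2, 3 without foliate library 1 and 4 without foliate library 2, with edgeR adjusted p between 0.00185 and 0.27. Reg3g and Muc5b kept it in all 4 fits. With the wild type libraries alone in the fit, 17 of the 27 tested members were lower and 1 was higher. In that fit 1974 of all 15871 genes were lower and 1877 were higher. Library 2 of each line stood above library 1 over the list, by a median of 0.29 (circumvallate) and 0.32 (foliate) on the log2 scale.

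**Figure D2:**
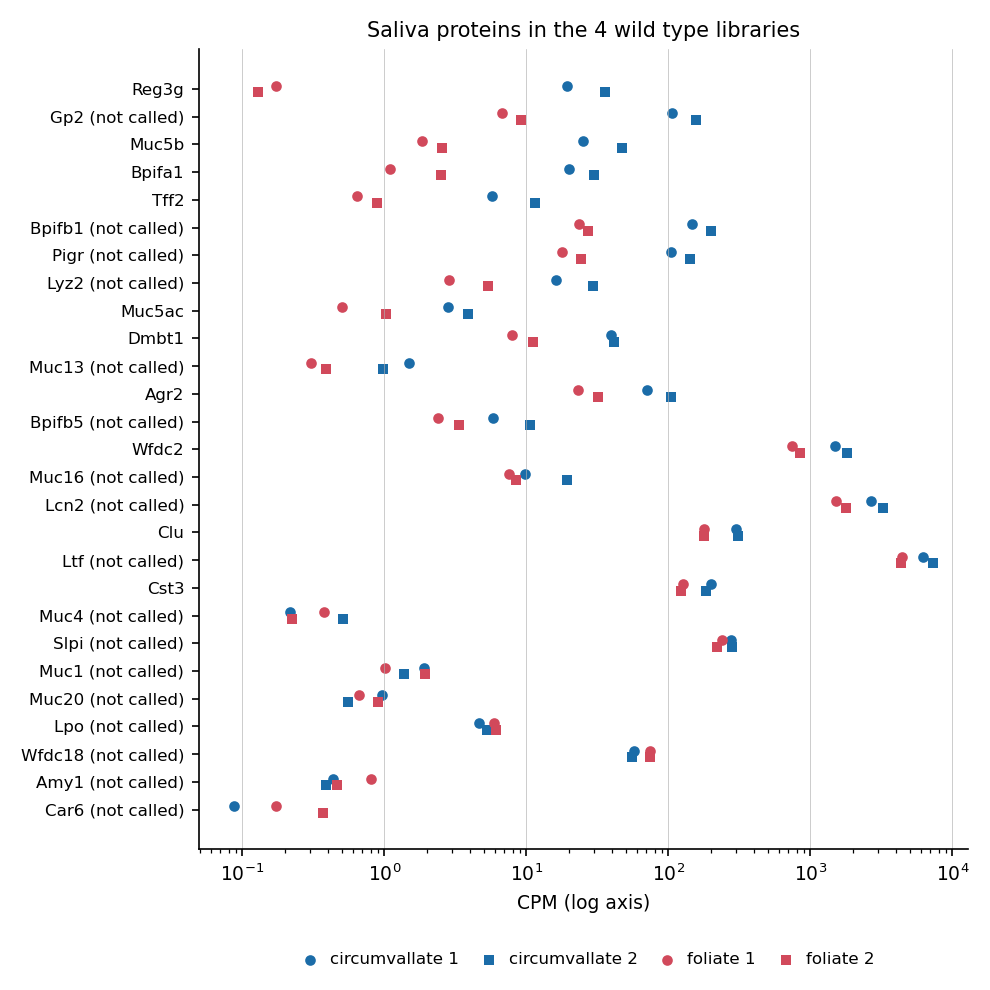
Level of the 27 tested saliva proteins in each wild type library, in CPM on a log axis, ordered by fold change; blue points are circumvallate, red points foliate, circles library 1 and squares library 2, and a library at 0 cannot be drawn (Car6 in circumvallate library 2). Among called genes Reg3g, Muc5b, Bpifa1 and Tff2 show the widest gaps between the lines, and Ltf, the one with the most counts, shows a narrow one.

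The promoters of Reg3g and Bpifa1 are shown as examples of secretory gene promoters with a TATA box, a short AT-rich element near many tightly regulated start sites. The sequences are from RefSeq (GRCm38.p6), from 250 bases before to 50 after the annotated start site, 5′ to 3′ on the gene's strand. Capitals mark TATAAA and its reverse complement TTTATA, searched on both strands with no overlap between the matches shown. The Reg3g window is chr6:78468825-78469124 on the minus strand, with the match starting at -27 on its own strand and one at -161 on the other. The Bpifa1 window is chr2:154142630-154142929 on the plus strand, with the match at -29.
Reg3g: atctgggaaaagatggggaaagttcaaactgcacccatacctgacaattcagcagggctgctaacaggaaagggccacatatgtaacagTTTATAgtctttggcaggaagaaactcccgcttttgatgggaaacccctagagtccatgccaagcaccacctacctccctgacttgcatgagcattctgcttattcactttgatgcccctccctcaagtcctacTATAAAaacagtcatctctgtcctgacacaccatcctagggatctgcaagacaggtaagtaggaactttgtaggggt
Bpifa1: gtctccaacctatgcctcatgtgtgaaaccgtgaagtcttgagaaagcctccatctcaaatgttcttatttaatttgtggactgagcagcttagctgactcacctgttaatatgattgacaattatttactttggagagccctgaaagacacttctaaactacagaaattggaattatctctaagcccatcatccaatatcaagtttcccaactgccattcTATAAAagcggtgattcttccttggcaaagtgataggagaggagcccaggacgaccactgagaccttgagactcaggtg
A match was found in the promoters of 7 of the 22 tested saliva genes with an entry in the table (31.8%), of 1007 of the 11114 tested genes with an entry (9.06%) and of 15.7% of the 27025 genes of the promoter table. Of the 5 called saliva genes with an entry, 2 had a match. A match is a description of these letters and shows neither binding nor a cause.

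Regulators and transporters of gland cells leaned the same way in part. Of 42 listed genes 36 were tested, with a median log2 fold change of -0.43. In foliate 7 were lower (19.4%, against 3.19% of all genes), 2 were higher (5.56%, against 4.24%) and 27 were not called. Spdef, an ETS factor of mucous cell maturation, had 9.17 and 10.2 CPM in circumvallate and 1.62 and 1.77 CPM in foliate libraries (log2 fold change -2.52 ± 0.35, edgeR adjusted p = 0.00266). Krt19, a simple-epithelial and duct keratin, had 95.1 and 125 against 31.9 and 31.9 CPM (log2 fold change -1.79). Vipr1, a receptor for vasoactive intestinal peptide, had 16.2 and 18.2 against 6.05 and 6.84 CPM (log2 fold change -1.42). These 3 genes were well separated between the lines.

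Ion transport genes formed the rest of the lower set: Scnn1a, the epithelial sodium channel alpha subunit (log2 fold change -1.18), Slc12a2, the cotransporter that loads chloride into secretory cells (-0.85), and Atp1b1, a sodium pump subunit (-0.73). Xbp1, a factor of secretory and unfolded protein programmes, was lower by a log2 fold change of -0.63. Slc12a2 stood at 658 and 744 CPM in circumvallate and 359 and 421 CPM in foliate libraries. Higher in foliate were Kit, a receptor tyrosine kinase (log2 fold change 0.81), and Nr4a1, an inducible nuclear receptor (0.38). Aqp5, the water channel of acinar cells, had 195 and 213 against 66.5 and 74.5 CPM and did not pass (edgeR adjusted p = 0.308). Krt8, Krt18, Foxa1 and Elf3, epithelial genes of ducts and glands, did not pass either, with log2 fold changes of -0.03, -0.41, -0.45 and -0.16. Of the 9 called genes, 5 kept the call without circumvallate library 1 and 3 without each other wild type library; Spdef and Vipr1 kept it in all 4 fits.

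Several large differences were not called in the fit reported, which shares 1 spread per gene over all 12 libraries, and were called in the wild type libraries alone. The spread of the latter fit is only that between the duplicates of each line, with 2 residual degrees of freedom. Its p-values therefore do not cover differences between cultures, and a small one is no evidence of a papilla difference. In total 2677 genes of any size of difference were called in the wild type libraries alone and not here, and 16 with large differences were picked for naming after their values were seen. Tmc4, a transmembrane channel-like protein, had 68.8 and 67.3 CPM in circumvallate and 5.10 and 5.38 CPM in foliate libraries (log2 fold change -3.70; edgeR adjusted p = 0.233 here and 1.48e-13 in the wild type libraries alone). Gp2, a glycoprotein of zymogen granules, had 106 and 155 against 6.69 and 9.17 CPM (edgeR adjusted p = 0.0562). Pigr, the receptor that carries immunoglobulin A into secretions, had 104 and 141 against 17.9 and 24.1 CPM (edgeR adjusted p = 0.116).

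In all of these the duplicates lay close and the lines apart, which the way they were picked required. Others of the kind lower in foliate by value were Bpifb1 (log2 fold change -2.77), Cntfr (-2.72), Ifitm1 (-2.40), Trf (-2.36), Clic6 (-2.18), Padi4 (-1.87), Duoxa2 (-1.79), Pcdhb14 (-1.74) and Sulf1 (-1.65). Of those higher by value, Krt90, a type II keratin, had 9.13 and 10.9 CPM in circumvallate and 71.1 and 64.7 CPM in foliate libraries (log2 fold change 2.76, edgeR adjusted p = 0.12). Rab6b stood at a log2 fold change of 3.22, Col11a1 at 2.34 and Cspg4 at 2.18. For some of these genes the knock-out clones of 1 line differed widely. Tmc4 had 3.38 and 3.09 CPM in circumvallate clone 2.10 and 95.8 and 91 CPM in clone 2.9. Rab6b had 12.7 and 13.2 CPM in foliate clone 2.4 and 0.891 and 0.487 CPM in clone 2.5.

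Outside the gland lists, the called gene with the largest difference towards lower in foliate, at a mean level of 4 CPM or more, was Chil1. This secreted chitinase-like protein had 33.5 and 56.8 CPM in circumvallate and 1.63 and 2.26 CPM in foliate libraries (log2 fold change -4.54 ± 0.51, edgeR adjusted p = 0.00228). Fmo1, a flavin-containing monooxygenase, had 12.1 and 16.6 against 2.20 and 2.95 CPM (log2 fold change -2.48 ± 0.22, edgeR adjusted p = 0.000516). For both genes the lower circumvallate library was several-fold above the higher foliate library. Tnf, the inflammatory cytokine, had 41.8 and 45.1 against 11.03 and 14.72 CPM (log2 fold change -1.76, edgeR adjusted p = 0.0308).

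Igfbp5, which binds insulin-like growth factors, had 102 and 100 CPM in circumvallate and 27.3 and 34.0 CPM in foliate libraries, and Ltbp2, a microfibril protein, 117 and 149 against 40.9 and 50.4 CPM. Crispld2, a secreted cysteine-rich protein, had 65.3 and 77.0 against 15.6 and 18.9 CPM. The others among the 20 largest called genes on this side with a mean of at least 4 CPM were Mtus2, a microtubule-associated protein (log2 fold change -2.60), Otx1, a homeobox factor (-2.11), Lipk, a lipase of keratinising epithelium (-1.78), Adcy2, an adenylate cyclase (-1.73), Prob1 (-1.58) and Ffar4, a fatty acid receptor (-1.48). Of the 12 genes of this group, 3, 3, 4 and 3 kept the call without circumvallate library 1 and 2 and foliate library 1 and 2; Chil1, Fmo1 and Lipk kept it each time.

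Cell cycle genes that were called were higher in foliate. All 41 listed cell cycle genes were tested and all 41 had a positive log2 fold change, with a median of 0.83; 17 were called higher, 0 lower and 24 were not called, against 4.24% called higher among all genes. The called genes act mostly in the entry into and passage through mitosis. The calls lie close to the threshold: 0 of the 17 kept theirs when any 1 wild type library was left out (edgeR adjusted p 0.0534 to 0.25), while the median of the list stayed between 0.82 and 0.86. In the wild type libraries alone 37 of the 41 were called higher, where 1877 of all 15871 genes were.

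Cenpe, a kinetochore motor, had 19.4 and 16.8 CPM in circumvallate and 42.9 and 41.6 CPM in foliate libraries (log2 fold change 1.22 ± 0.24, edgeR adjusted p = 0.0137). Foxm1, a transcription factor of mitotic genes, had 9.35 and 9.05 against 20.7 and 20.3 CPM (log2 fold change 1.16 ± 0.20, edgeR adjusted p = 0.00766). Mki67, the common marker of cycling cells, had 48.4 and 51.6 against 102 and 104 CPM (log2 fold change 1.05 ± 0.26, edgeR adjusted p = 0.0397). The duplicates of each line were nearly level for these genes and the foliate pair was about 2-fold above.

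Aurkb, the chromosomal passenger kinase, had a log2 fold change of 1.13. Ccnb1, a mitotic cyclin, had 11.8 and 11.8 CPM in circumvallate and 27.7 and 21.9 CPM in foliate libraries. Hmmr, a spindle protein and hyaluronan receptor, had 19.9 and 18.3 against 41.9 and 38.1 CPM. The other called members were Birc5 (log2 fold change 1.03) and Kif20a (1.02), which act in cytokinesis, Cdc20, an activator of the anaphase-promoting complex (0.99), Tpx2, a spindle assembly factor (0.87), the phosphatase Cdc25c (0.85), the kinase Plk1 (0.85), Ccnb2 (0.83), the ribonucleotide reductase subunit Rrm2 (0.82), the checkpoint kinase Bub1b (0.73), Cdk1 (0.64) and the centromeric histone Cenpa (0.50). Below the threshold were Top2a, a topoisomerase of dividing cells, with 78.6 and 76.1 against 138 and 143 CPM (edgeR adjusted p = 0.0941), Mcm5, a replication helicase subunit, with a log2 fold change of 1.22 (edgeR adjusted p = 0.0965), and Pcna, the replication clamp, with 0.25 (edgeR adjusted p = 0.196).

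Among the 20 largest called genes that were higher, with a mean of at least 4 CPM, 11 genes that are not on the list act in replication or division; they were picked by function after their values were seen. Mcm10, a replication initiation factor, had 1.99 and 2.10 CPM in circumvallate and 6.21 and 6.08 CPM in foliate libraries (log2 fold change 1.59 ± 0.29, edgeR adjusted p = 0.00827). The kinetochore genes Nsl1 (log2 fold change 1.47), Ndc80 (1.37), Zwilch (1.32) and Nuf2 (1.25), the spindle protein Spag5 (1.23) and the checkpoint kinase Ttk (1.22) were among them. Pole, the catalytic subunit of a replicative polymerase (1.37), the motor Kif15 (1.27), Iqgap3 (1.27) and the helicase Pif1 (1.22) completed the set. Without foliate library 2, 1 of these 11 genes kept its call, and 0 did without any other wild type library.

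**Figure D3:**
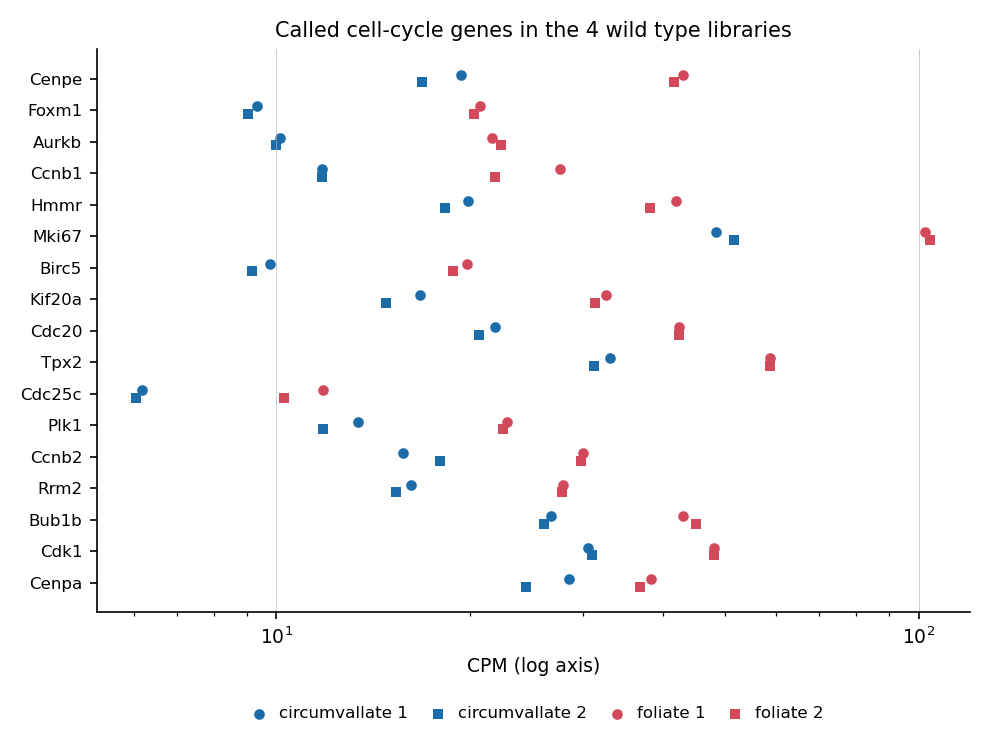
Level of the 17 called cell cycle genes in each wild type library, in CPM on a log axis; blue points are circumvallate, red points foliate, circles library 1 and squares library 2. Both foliate points lie above both circumvallate points for every gene drawn, with log2 fold changes from 0.50 (Cenpa) to 1.22 (Cenpe).

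The promoters of Plk1, Mki67 and Hmmr are shown because all 3 genes were called and their promoters hold both elements that textbook accounts give for late cell cycle genes, the CCAAT box and the cell cycle genes homology region (CHR). The CHR was searched as TTTGAA or TTCGAA and the CCAAT box as CCAAT, each on both strands, so that capitals also mark the reverse complement ATTGG; the matches shown do not overlap. The sequences are RefSeq windows as above, on chr7:122159185-122159484 (Plk1, plus strand), chr7:135716330-135716629 (Mki67, minus strand) and chr11:40733388-40733687 (Hmmr, minus strand).
Plk1: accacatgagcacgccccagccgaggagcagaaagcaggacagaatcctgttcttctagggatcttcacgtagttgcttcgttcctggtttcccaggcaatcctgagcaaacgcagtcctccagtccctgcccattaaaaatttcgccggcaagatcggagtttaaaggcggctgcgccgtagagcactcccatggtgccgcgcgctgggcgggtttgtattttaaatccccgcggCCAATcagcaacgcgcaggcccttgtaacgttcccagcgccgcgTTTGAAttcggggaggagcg
Mki67: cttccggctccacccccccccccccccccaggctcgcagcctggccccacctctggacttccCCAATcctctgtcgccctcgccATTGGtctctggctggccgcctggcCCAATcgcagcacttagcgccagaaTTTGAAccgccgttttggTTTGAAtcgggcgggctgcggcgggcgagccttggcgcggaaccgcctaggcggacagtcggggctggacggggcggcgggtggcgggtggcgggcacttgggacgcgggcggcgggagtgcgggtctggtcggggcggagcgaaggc
Hmmr: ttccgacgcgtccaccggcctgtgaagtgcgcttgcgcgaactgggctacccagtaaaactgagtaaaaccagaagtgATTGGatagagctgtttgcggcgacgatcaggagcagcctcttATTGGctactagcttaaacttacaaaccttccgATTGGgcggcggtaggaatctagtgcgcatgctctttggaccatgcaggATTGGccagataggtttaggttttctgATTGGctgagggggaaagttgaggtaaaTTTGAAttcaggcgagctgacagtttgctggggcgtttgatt
In Plk1 the CHR match starts at 31 after the start site and the CCAAT match at -14. Mki67 has CHR matches at -116 and -98, and Hmmr has one at 9. A CHR match stood in the promoters of 17 of the 31 tested cell cycle genes with an entry (54.8%), against 16.5% of the 11114 tested genes with an entry and 21.7% of all 27025 genes of the table. CCAAT was found in 25 of the 31 (80.6%), against 42.6% and 41.1%. Of the 12 called cell cycle genes with an entry, 8 had a CHR match and 11 a CCAAT match.

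Of the p53 targets, all 26 listed genes were tested; 12 were higher in foliate (46.2%, against 4.24% of all genes), 0 were lower and 14 were not called, and the median log2 fold change was 0.32. Ckap2, Gtse1 and Psrc1 of these 12 are also division genes, with log2 fold changes of 1.22, 0.45 and 0.66. Cdkn1a, the cyclin-dependent kinase inhibitor p21, had 433 and 352 CPM in circumvallate and 582 and 572 CPM in foliate libraries (log2 fold change 0.56 ± 0.14, edgeR adjusted p = 0.0417). Mdm2, the ubiquitin ligase that turns p53 over, had 84.7 and 80.8 against 106 and 108 CPM (log2 fold change 0.37 ± 0.06, edgeR adjusted p = 0.0066). The lines did not overlap for either gene, while the circumvallate duplicates of Cdkn1a lay apart, and leaving out 1 wild type library moved its log2 fold change between 0.414 and 0.708.

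The other called targets were Plk2, a polo-like kinase (log2 fold change 0.70), Eda2r, an ectodysplasin receptor (0.68), Zmat3, an RNA-binding protein (0.48), Trp53inp1 (0.45), the nuclease Aen (0.41), Ccng1, a cyclin that acts on Mdm2 (0.36), and Btg2, an antiproliferative gene (0.32). Without circumvallate library 1 the call was kept by 5 of the 12, without circumvallate library 2 by 0, and without either foliate library by 1.

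Plb1, a phospholipase of the brush border, had the smallest adjusted p of the comparison. Its levels were 7.43 and 6.04 CPM in circumvallate and 28.6 and 26.9 CPM in foliate libraries (log2 fold change 2.04 ± 0.12, edgeR adjusted p = 6.84e-06). Serpinb10, an intracellular serine protease inhibitor, had 6.63 and 6.30 against 31.4 and 32.7 CPM (log2 fold change 2.31 ± 0.31, edgeR adjusted p = 0.00424). The foliate libraries were level with each other in both genes.

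Spon2, a secreted matrix protein, had 52.3 and 49.6 CPM in circumvallate and 129 and 120 CPM in foliate libraries, and Angpt1, a ligand of the Tie2 receptor, 14.1 and 16.2 against 36.5 and 40.1 CPM. The other large differences on this side were Glipr2 (log2 fold change 1.69), Zfp365 (1.51) and Epdr1 (1.24). Of these 7 genes, 4, 3, 4 and 5 kept the call without circumvallate library 1 and 2 and foliate library 1 and 2, and Plb1, Glipr2 and Epdr1 kept it in each of the 4 fits.

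Keratinocyte differentiation genes were weighted to foliate, with few calls. Of 62 listed genes 49 were tested, and the median log2 fold change was 0.30. In foliate 5 were higher (10.2%, against 4.24% of all genes), 1 was lower (2.04%, against 3.19%) and 43 were not called. Sbsn, suprabasin of the upper layers, had 23.8 and 20.8 CPM in circumvallate and 51.9 and 43.0 CPM in foliate libraries (log2 fold change 1.09 ± 0.14, edgeR adjusted p = 0.0022). The others were the beta-defensin Defb1 (log2 fold change 0.82), the stress keratin Krt6a (0.58), the desmosomal cadherin Dsg3 (0.38) and the transcription factor Klf4 (0.37), and Cstb, a cystatin, was lower (-0.20). Krt13, the main suprabasal keratin of the tongue surface, ranged from 28.4 to 48.1 CPM in circumvallate and from 34.7 to 59.1 CPM in foliate libraries, so the lines overlapped (edgeR adjusted p = 0.886). Krtdap had a log2 fold change of 0.58 that did not pass (edgeR adjusted p = 0.298).

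Basal and stem cell genes split in both directions. Of 36 listed genes 34 were tested; 2 were higher in foliate (5.88%, against 4.24% of all genes) and 3 lower (8.82%, against 3.19%). Higher were Krt17, a basal and stress keratin (log2 fold change 0.54), and the caveola protein Cav1 (0.47). Lower were Igfbp5, given above, Sox2, a progenitor factor of taste epithelium (-0.40), and Lama3, a basement membrane laminin chain (-0.27). Krt14, the partner of Krt5, had 1861 and 1676 CPM in circumvallate and 2759 and 2755 CPM in foliate libraries and did not pass (edgeR adjusted p = 0.0527). Trp63, the basal cell factor, had 514 and 517 against 400 and 442 CPM (edgeR adjusted p = 0.0783). Lgr5, the receptor that marks posterior tongue stem cells, had 74 and 70 counts in circumvallate and 28 and 32 counts in foliate libraries (log2 fold change -1.15 ± 0.39, edgeR adjusted p = 0.0922). It stood at about 1 CPM or less in each library, so few counts carry the value.

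Among genes of taste cells, 0 of 6 tested type II genes and 0 of 5 tested type III genes were called, of 19 and 16 listed, where 7.43% of all genes were called. Type I and precursor genes gave 2 calls of 11 tested, Sox2 and Eya2, both lower in foliate (18.2%, against 3.19% of all genes). Eya2, a transcriptional coactivator, had 336 and 320 CPM in circumvallate and 238 and 239 CPM in foliate libraries (log2 fold change -0.46 ± 0.06, edgeR adjusted p = 0.00285). Entpd2, an ATP-degrading enzyme of type I cells, had 21.3 and 21.6 against 19.5 and 17.5 CPM and was not called (edgeR adjusted p = 0.323). Over the keratinocyte, basal and taste genes called, 3 kept the call of 12 without circumvallate library 1 and 2 without each other wild type library; Eya2 and Sbsn kept it each time.

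Of 135 listed patterning and regional transcription factors, 50 were tested (median log2 fold change -0.05). In foliate 3 were higher (6%, against 4.24% of all genes), 3 lower (6%, against 3.19%) and 44 were not called. Osr2, an odd-skipped factor of palate and tooth development, had 0.0290 and 0.138 CPM in circumvallate and 3.70 and 3.42 CPM in foliate libraries (log2 fold change 5.37 ± 1.14, edgeR adjusted p = 0.0192). Leaving out 1 wild type library moved this value between 4.67 and 6.85, and the call was lost each time. The foliate libraries lay above both circumvallate libraries at a low level, and in the knock-out cultures the log2 fold change of Osr2 was -3.60.

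Barx2, a homeobox factor, was modestly higher in foliate (log2 fold change 0.45), and Otx1, Eya2 and Tbx3, a T-box factor, were lower (-2.11, -0.46 and -0.28). Otx1 had 30.6 and 29.3 CPM in circumvallate and 6.59 and 7.30 CPM in foliate libraries. The oral factors Pitx1 and Pax9 stood level at 138 to 154 CPM and 191 to 210 CPM across the 4 libraries, as did Sox9 at 317 to 403 CPM. Of the 6 called factors 1, Eya2, kept the call whichever wild type library was left out.

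Signalling genes gave few calls, and the shares are to be read beside the 3.19% of all genes called lower and the 4.24% called higher. Wnt genes had 4 lower of 39 tested: Sfrp1, a secreted Wnt inhibitor (log2 fold change -0.74), the receptors Fzd3 (-0.61) and Fzd4 (-0.31) and the co-receptor Lrp6 (-0.26). Sfrp1 had 152 and 188 CPM in circumvallate and 96.2 and 107 CPM in foliate libraries. Hedgehog genes had 2 lower of 10, the co-receptors Gas1 (-0.78) and Boc (-0.56). TGF-beta and BMP genes had 4 lower of 36, among them the receptors Tgfbr3 (-1.01) and Tgfbr1 (-0.45), the decoy receptor Bambi (-0.51) and the matrix regulator Ltbp2, and 1 higher, the follistatin-like protein Fstl1 (0.72). FGF genes had 2 lower of 23, the ligand Fgf1 (-0.46) and the receptor Fgfr2 (-0.22), and retinoic acid genes 1 of 21 (4.76%), the retinal reductase Dhrs3 (-0.64). Of 23 tested Notch genes 0 were called. Of 14 called signalling genes, 3, 1, 0 and 0 kept the call without circumvallate library 1 and 2 and foliate library 1 and 2.

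Of the 11 called defence genes Il18 was higher in foliate and the others were lower. Of 39 tested interferon-stimulated genes 2 were lower (5.13%, near the 3.19% of all genes), Isg20, an exonuclease (log2 fold change -0.67), and Ifitm3, a membrane restriction factor (-0.38), and 37 were not called, although 37 of the 39 had negative values and the list median was -0.59. In the wild type libraries alone 21 of the 39 were lower, where 1974 of all 15871 genes were. Antigen presentation genes had 4 lower of 25 (16%): the class I genes H2-K1 (-0.31) and H2-T23 (-0.23), the loading factor Tapbp (-0.31) and the immunoproteasome subunit Psmb10 (-0.52). Class I genes are close copies, so the values of H2-K1 and H2-T23 are uncertain.

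Chemokine and cytokine genes had 4 lower (10.3%, against 3.19% of all genes) and 1 higher (2.56%, against 4.24%) of 39. Cx3cl1, a membrane-bound chemokine, had 540 and 596 CPM in circumvallate and 333 and 360 CPM in foliate libraries (log2 fold change -0.71 ± 0.08, edgeR adjusted p = 0.00123), and Cxcl17, a mucosal chemokine, 35.7 and 37.2 against 12.6 and 14.3 CPM (log2 fold change -1.44 ± 0.18, edgeR adjusted p = 0.00228). Tnf and the receptor chain Il13ra1 (-0.38) were the others lower, and the cytokine Il18 was higher (1.37) at 1.07 and 1.15 against 2.90 and 2.83 CPM. Of 11 called defence genes, 3, 2, 2 and 3 kept the call without circumvallate library 1 and 2 and foliate library 1 and 2; Cxcl17 and Cx3cl1 kept it throughout.

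Over all genes 3.19% were called lower and 4.24% higher, and the shares of these lists are to be read beside them. Xenobiotic and glutathione enzymes had 5 lower (8.47%) and 1 higher (1.69%) of 59 tested. Lower were Fmo1, the cytochrome P450 gene Cyp2f2 (log2 fold change -0.63), Mgst1 (-0.63), Gstt3 (-0.40) and the lipid peroxide reductase Gpx4 (-0.29), and higher was Gclc, which makes glutathione (0.28). Glycolysis and hypoxia genes had 2 lower of 33 (6.06%), Car12, a carbonic anhydrase (-0.77), and the enolase Eno2 (-1.24). Lipid synthesis genes had 1 lower (2.63%), the desaturase Scd1 (-0.52), and 1 higher (2.63%), Acly, which makes cytosolic acetyl-CoA (0.34), of 38. Of the 10 called metabolic genes, 1, 2, 1 and 1 kept the call in the 4 fits that leave out a wild type library, and Fmo1 did in each.

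Protein folding genes of the endoplasmic reticulum had 6 lower (22.2%, against 3.19% of all genes) and 2 higher (7.41%, against 4.24%) of 27 tested. The 6 were P4hb and Pdia3, disulfide isomerases, Dnajc3, Dnajb9 and Hyou1, chaperones and co-chaperones, and Sel1l of the degradation complex, with log2 fold changes from -0.31 to -0.23. The higher ones, Atf4 (0.36) and Asns (0.77), belong to the amino acid response. The main chaperone Hspa5 had 1059 and 1087 against 941 and 1060 CPM and was not called (edgeR adjusted p = 0.417). Immediate early genes went both ways, with 3 higher (13.6%) and 4 lower (18.2%) of 22. Higher were Myc (0.83), Klf4 and Nr4a1, and lower were Egr2 (-1.42), Fos (-0.44), Junb (-0.35) and Ier2 (-0.30). Myc, the growth-linked transcription factor, had 121 and 118 CPM in circumvallate and 219 and 205 CPM in foliate libraries. Of 15 called genes of both lists, 2, 0, 2 and 1 kept the call in the fits that leave out a wild type library.

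Of 12 tested claudins, 2 were lower in foliate (16.7%, against 3.19% of all genes). Cldn2, a claudin that forms cation pores, had 3.37 and 5.86 CPM in circumvallate and 0.535 and 0.594 CPM in foliate libraries (log2 fold change -3.03 ± 0.48, edgeR adjusted p = 0.00701), and Cldn6, a fetal-type claudin, 4.85 and 5.06 against 0.564 and 1.11 CPM (log2 fold change -2.57 ± 0.52, edgeR adjusted p = 0.0206). Of 31 collagens 1 was higher (3.23%, near the 4.24% of all genes). It was Col12a1, a fibril-associated chain, at 26.6 and 18.0 against 55.9 and 48.1 CPM. Mylk, a myosin kinase, was the 1 lower of 9 myoepithelial genes (11.1%, against 3.19% of all genes), at under 1 CPM in each wild type library. Slc22a18 (log2 fold change -0.34) was the 1 lower of 24 imprinted genes (4.17%, near the 3.19% of all genes). Of 8 tested genes known to vary between inbred strains 1 was higher (12.5%, against 4.24% of all genes), Ifi202b (log2 fold change 0.39). Genes of fibroblasts (8 tested), immune cells (6), endothelium (5), nerve and glia (6) and skeletal muscle (2) gave 0 calls. As 7.43% of all genes were called, few or 0 calls would be usual for lists this short. Summed levels of each of these non-epithelial lists were nevertheless higher in circumvallate, as the saliva sum was. They were 1621 and 1362 CPM against 1030 and 897 CPM for fibroblast genes, 318 and 391 against 203 and 234 CPM for immune genes, and 181 and 192 against 133 and 146 CPM for nerve and glia genes. At low levels they were 4.09 and 4.73 against 3.50 and 3.53 CPM for endothelium and 1.48 and 1.16 against 0.939 and 0.417 CPM for skeletal muscle. In the fibroblast, immune, and nerve and glia lists, 1 gene held most of the sum: Postn, a matrix protein, had 1555 and 1299 against 932 and 820 CPM, Cd14, a co-receptor for bacterial lipopolysaccharide, 286 and 346 against 183 and 214 CPM, and Ngfr, a neurotrophin receptor, 166 and 179 against 101 and 116 CPM. Col1a1, Col1a2 and Pdgfra stood at under 2 CPM in each wild type library, and Ptprc at 0. What part these lists have in the saliva difference was not tested.

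Calls were spread over the genome. Of the tested genes 15547 (98%) have a position in GENCODE M21 (GRCm38), and chromosome medians of the log2 fold change ran from -0.042 to 0.046. Between 5.82% and 10.7% of the tested genes of a chromosome were called. The gene bodies of the 5 genes past the 2-fold test lie at chr5:32232708-32366520 (Plb1, plus strand), chr6:78466269-78468872 (Reg3g, minus), chr1:134182176-134190181 (Chil1, plus), chr7:141839070-141873084 (Muc5b, plus) and chr1:162829561-162866610 (Fmo1, minus), and each is annotated as protein coding.

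**Figure D4:**
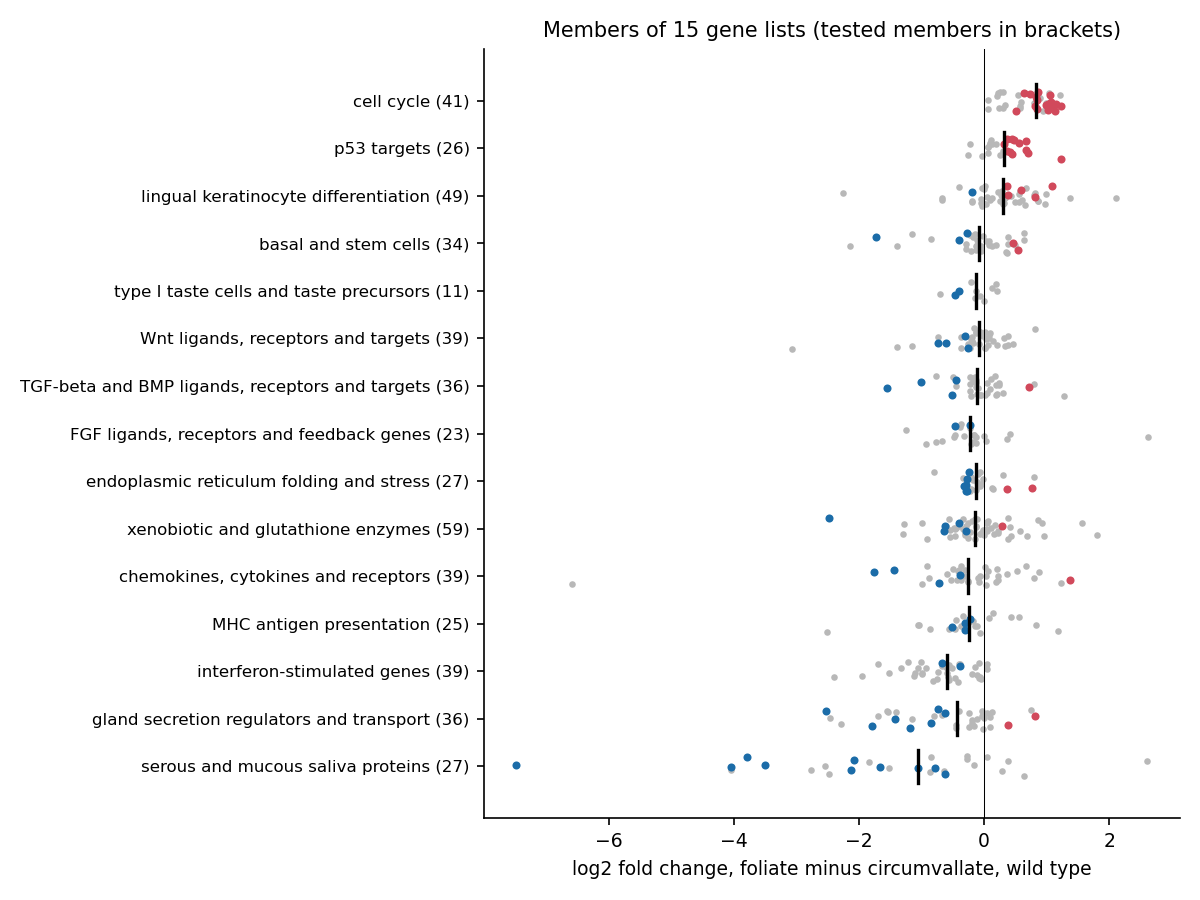
Log2 fold change (foliate minus circumvallate, wild type) of the tested members of 15 gene lists, 1 point per gene; red points were called higher in foliate, blue points lower, grey points were not called, and the black bar is the list median. Cell cycle members lie wholly above zero (median 0.83) and saliva proteins mostly below (median -1.06), while most other list medians are near zero.

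The same papilla contrast in the Foxe1 knock-out cultures, 2 clones per line, was set beside the wild type one. The fold changes of the 2 contrasts rest on different libraries. Their calls come from the same fit, with a spread per gene shared by all libraries of the series. The calls of the 2 contrasts are therefore not independent. In the knock-out cultures 2040 genes were higher in foliate (12.9%) and 2100 lower (13.2%). The difference between the 2 contrasts was called for 2753 genes (17.3%). Of the 673 genes higher in wild type foliate organoids, 241 (35.8%) had the same sign in the knock-out cultures, 69 were called higher there and 175 were called lower. Of the 506 lower genes, 239 (47.2%) had the same sign, 116 were called lower and 120 higher; among all tested genes 46.8% had the same sign. The difference itself was called for 498 of the 673 and 315 of the 506. These genes were picked by the wild type contrast, which is part of that difference, so the selection raises both counts. Only the knock-out cultures carry a clone name in the labels, so cloning and genotype cannot be told apart.

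For the cell cycle list the median log2 fold change was 0.83 in wild type and -0.38 in knock-out cultures, where 1 of 41 was higher and 11 lower, and the difference was called for 31 of the 41. Saliva proteins had a median of 0.13 in knock-out cultures, with 4 higher and 6 lower. Keratinocyte genes had 23 higher and 0 lower there, with a median of 0.63. The p53 targets had a median of 0.12.

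**Figure D5:**
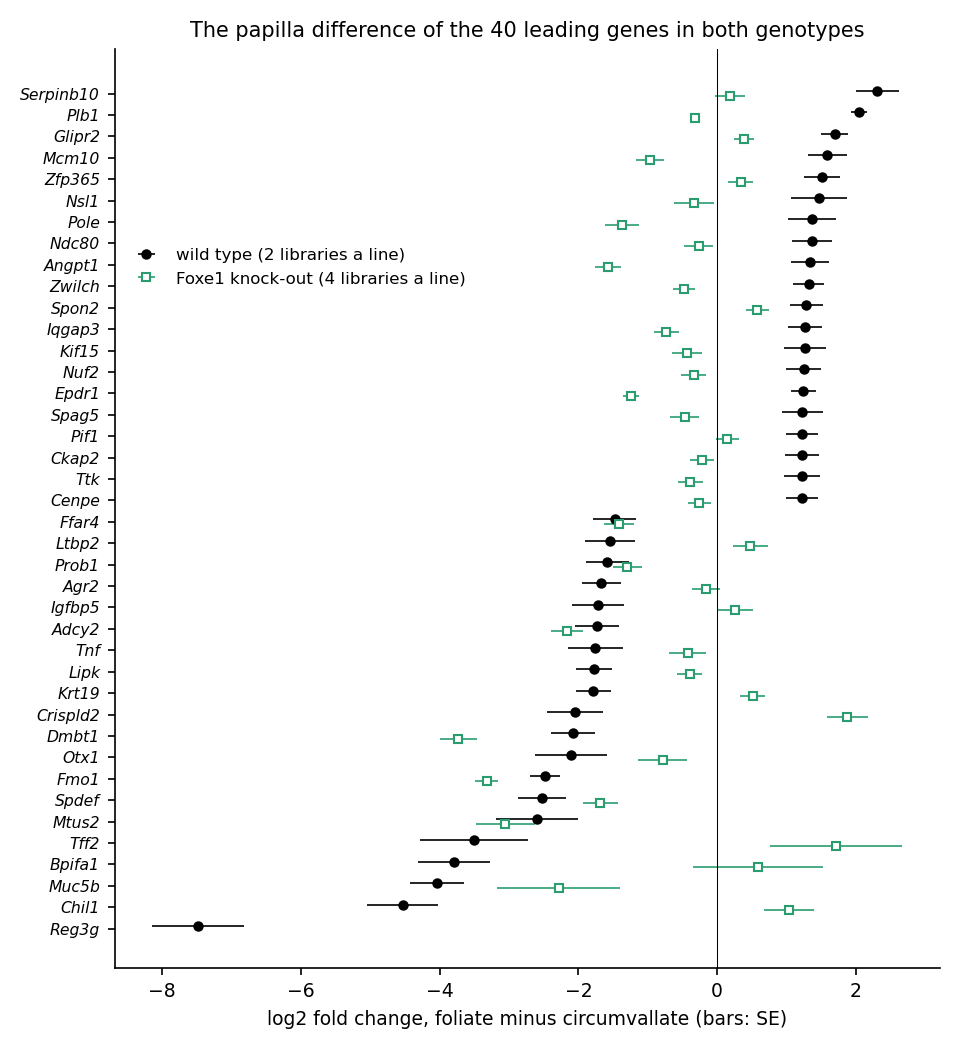
Log2 fold change (foliate minus circumvallate, horizontal axis) of the 20 largest called genes in each direction with a mean of at least 4 CPM, with wild type as filled circles and Foxe1 knock-out cultures as open squares; bars are standard errors. Fmo1, Mtus2, Adcy2, Prob1 and Ffar4 lie below zero in both genotypes, Chil1 and Crispld2 lie on opposite sides, and no knock-out value is drawn for Reg3g because both knock-out arms are near 0 counts. The knock-out values of Tff2, Bpifa1 and Muc5b rest on few counts.

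A small set of genes lay on the same side in every library. All 6 foliate libraries stood above all 6 circumvallate libraries for 126 genes (0.794%) and below for 151 (0.951%) of the tested genes, and of these 31 and 54 were also called in wild type. The 6 libraries of a line are duplicates of fewer cultures, so they are not 6 replicates. The genes named from this set were picked for large differences in both genotypes. Their agreement between genotypes was therefore required by the choice and lends no support. The log2 fold change of Fmo1 was -2.48 in wild type and -3.32 in knock-out cultures, with 10.8 to 13.4 CPM in the 4 circumvallate and 0.990 to 1.43 CPM in the 4 foliate knock-out libraries. Vipr1 had -1.42 and -1.31, and Cxcl17 -1.44 and -2.30. Mtus2 (-2.60 and -3.05), Adcy2 (-1.73 and -2.17), Atp6v0e2, a proton pump subunit (-1.44 and -1.58), Prob1 (-1.58 and -1.29) and Ffar4 (-1.48 and -1.42) were others so picked.

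On the foliate side, among genes picked in the same way, Sbsn had 1.09 in wild type and 0.87 in knock-out cultures, at 15.1 to 19.3 CPM in the circumvallate and 28.6 to 32.8 CPM in the foliate knock-out libraries. Abcb1b, a drug efflux pump, had 0.86 and 0.58, Sned1, a matrix protein, 0.85 and 0.48, and Ankrd44 0.62 and 0.31. Pdzrn3 (0.48 and 0.30), Atp10d, a lipid flippase (0.44 and 0.45), Ifi202b (0.39 and 0.30) and Pxdc1 (0.30 and 0.31) were the others named. Of these 16 genes, 5, 6, 7 and 5 kept the wild type call without circumvallate library 1 and 2 and foliate library 1 and 2, and Fmo1, Vipr1, Sbsn, Cxcl17 and Atp6v0e2 kept it in all 4 fits.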

How the data were processed

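RNA from mouse tongue organoids was made into stranded poly(A) libraries with TruSeq kits, per the labels' protocols. The deposited table holds raw counts per gene for 12 libraries, made with STAR, featureCounts and hg38 per the submitters' processing notes, with no version; its symbols are mouse ones, and 96.1% match exactly 1 gene of GENCODE M21. Whether counting used strand is not given here, so a gene and its antisense or overlapping neighbour could share reads. Counts were used as deposited. Values of 2 and 4 are over-represented against 1 and 3 (20289 and 10030 against 20007 and 6626), so halved counts were an alternative.

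Genes with 10 or more counts in 2 of the 4 wild type libraries (15871) were scaled by TMM and fitted with the robust quasi-likelihood functions of edgeR 4.0.16 (R 4.3.3) over 4 arms (line by genotype) of all 12 libraries, with 8 residual degrees of freedom; glmTreat gave the test against 2-fold. P-values were adjusted by Benjamini-Hochberg over all tested genes at 0.05. Standard errors are the fold change over the root of F, an approximation. The fit was tested on simulated data for the wild type comparison (15871 genes). It recovered 79 of 100 genes changed 2-fold and 97 of 100 changed 4-fold, with 11 false calls. The simulated libraries were drawn independently, with no shared effect of culture or clone. The false calls therefore do not cover differences between cultures. DESeq2 1.42.0 and limma 3.58.1 served as alternatives, beside other filters, scalings, groupings and left-out libraries.

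The comparison and its 34 gene lists were chosen with earlier results of these data known. The naming rule took up to 12 genes in each direction past the 2-fold test with a mean of at least 4 CPM and no overlap, the 12 genes with most counts, up to 5 called members of each list, Foxe1 and Lgr5. It gave 5 genes past the 2-fold test. The 20 largest called genes in each direction, every called list member, genes apart in all 12 libraries, 16 large differences that were not called, and 37 other genes were therefore named after their values were seen. Of the genes so chosen, 1 is not reported here.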

Additional observations from a re-analysis of the deposited data

Results flagged for a closer look

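In 4 genes 1 library stood apart from the other 3 of its knock-out arm, by a test that chance meets in about 1 in 20 groups. The test was run for each of the 40 leading genes in both knock-out arms, so about as many cases are expected by chance. Reg3g had 0.0637 CPM in 1 circumvallate knock-out library and 0 in the others of that arm, Mcm10 had 1.04 CPM in 1 foliate knock-out library against 1.66 to 1.71 CPM, Spag5 had 6.22 against 3.96 to 4.26 CPM in the same arm, and Adcy2 had 17.3 against 14.9 to 15.2 CPM in the circumvallate knock-out arm.

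The difference between foliate and circumvallate itself differed between genotypes for 30 of the leading genes, by the interaction term of edgeR's quasi-likelihood fit. Values are the wild type log2 fold change minus the knock-out one. The leading genes were picked for large wild type differences, which raises this count and the size of the values. The genotype difference was 2.37 for Plb1, 2.12 for Serpinb10, 1.31 for Glipr2, 1.17 for Zfp365, 2.92 for Angpt1 and 2.49 for Epdr1. Angpt1 and Epdr1 were called in opposite directions in the 2 genotypes (log2 fold changes 1.34 and 1.24 in wild type, -1.58 and -1.25 in knock-out cultures).

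For division genes it was 2.74 for Pole, 2.55 for Mcm10, 2 for Iqgap3, 1.8 for Nsl1 and for Zwilch, 1.71 for Kif15, 1.7 for Spag5, 1.63 for Ndc80, 1.61 for Ttk, 1.59 for Nuf2, 1.48 for Cenpe, 1.45 for Ckap2 and 1.08 for Pif1. These 13 genes were higher in wild type foliate organoids, and 12 of them, Pif1 excepted, had negative values in the knock-out contrast.

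Among genes lower in wild type foliate organoids it was -5.57 for Chil1, -5.22 for Tff2, -4.38 for Bpifa1, -3.92 for Crispld2, -2.3 for Krt19, -2.02 for Ltbp2, -1.98 for Igfbp5, -1.5 for Agr2 and -1.38 for Lipk. The values of Tff2 and Bpifa1 are poorly fixed, since both knock-out arms were near 0, with at most 0.228 CPM for Tff2 and 0.0931 CPM for Bpifa1 in any knock-out library. Dmbt1 (1.65) and Fmo1 (0.84) went the other way: both were lower in foliate in both genotypes, and further so in the knock-out cultures (-3.73 and -3.32). Crispld2 was called higher in the knock-out foliate cultures (1.88).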

How the results depend on the processing

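The 1179 calls between the wild type lines did not change sign under any alternative run. Every run used the same 4 wild type libraries or some of them. The lines did not overlap for any of these calls, so a change of sign was hardly possible. The number of calls moved widely. It was 3851 with the 4 wild type libraries alone, 2840 with 1 group per culture, 2064 with DESeq2's Wald test, 519 with limma's voom and culture as a block, 0 with duplicates summed per culture, and 109 to 172 without 1 wild type library. Filters, DESeq2 size factors, halved counts gave 1056 to 1289 calls, and leaving out 1 knock-out library 1094 to 1281. The 5 genes past 2-fold became 64 (wild type alone), 48 (1 group per culture), 0 (summed), 11 and 9 without knock-out clones 2.10 and 2.9, and 1 to 7 without 1 library. The 4140 calls of the knock-out contrast became 19 (summed) and 2530 (voom), and the 2753 differences between genotypes 4456 (1 group per culture), 0 (summed), 1397 (voom) and 1149 to 2945 without 1 library. Calls within the gene lists, 123 over all lists, became 396 (wild type alone), 281 (1 group per culture), 197 (DESeq2), 79 (voom), 0 (summed) and 13 to 134 without 1 library. Where a library was left out, its line had 1 wild type library, assumed to vary like the other groups. The 0 calls of the summed fit rest on fewer samples, and otherwise the cause was not tested.

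With the replicate number as a block, 961 genes were called. Deviations of same-numbered duplicates correlated above 0.1 in 3 of 15 pairs of cultures (-0.19 to 0.34): the wild type pair (0.16), the 2 circumvallate clones and the 2 foliate clones. Since the labels do not tie the numbers to a shared batch or day and the other pairs fell below, the numbers were not taken to pair the samples. Under the block the calls of Nsl1, Pole, Otx1, Ltbp2, Muc5ac, Lama3, Krt6a, Klf4, Barx2, Gas1, Fgf1, Fgfr2, Eno2, Acly, Atf4, Sel1l, Cdkn1a, Egr2, Pxdc1, Cstb, Dnajc3, Birc5, P4hb and Gjb1 were lost (edgeR adjusted p 0.051 to 0.0714).

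Of 155 called genes chosen for naming, 140 lost the call without at least 1 wild type library and 112 without each of the 4. At 62.3 to 72.5 counts per CPM, counting error limits values under about 1 CPM, such as those of Lgr5 and Reg3g in foliate.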

Other observations

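Some genes outside the lists and the leading genes were close to present in 1 line only, at low counts. Aldh1l1, a folate enzyme, had 106 and 109 counts in circumvallate and 0 and 4 counts in foliate libraries (edgeR adjusted p = 0.00941). Astn2, an astrotactin, had 73 and 66 against 2 and 4 counts (edgeR adjusted p = 0.0111), and its log2 fold change was -4.37 in wild type and -4.24 in knock-out cultures. Gjb1, a gap junction protein, had 16 and 14 counts in circumvallate and 0 in both foliate libraries. Taking 3 counts over the foliate line as its upper limit, it was at least 9.3-fold lower there, and Fer1l6, with 22 and 15 against 0 counts, at least 11.5-fold lower. These genes were picked after their values were seen.

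Xist, the RNA of the inactive X chromosome, had 151 and 184 CPM in circumvallate and 344 and 336 CPM in foliate libraries and was not called (log2 fold change 1.02 ± 0.38, edgeR adjusted p = 0.139).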
